A study of Homo sapiens with 6 samples.

Results

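The genes described here encode the inhibitors of cyclin-dependent kinases (CDKs) of the CIP/KIP and INK4 families: CDKN1A (p21), CDKN1B (p27) and CDKN1C (p57), and CDKN2A (p16 and p14ARF), CDKN2B (p15), CDKN2C (p18) and CDKN2D (p19). Every probe set whose array annotation gives only that gene symbol was taken. This gave 14 probe sets for 6 of the 7 genes, among 19775 genes on the array, and CDKN2C was not analysed here. The cells were HCT116, an established human colon carcinoma line. Control cells received control oligos and miR-224 cells received miR-224 precursor molecules, both at 50 nM, and were harvested for total RNA 24 h later. There were 3 control and 3 miR-224 arrays (Affymetrix Human Genome U133 Plus), and arrays with the same number were treated as a pair from the same independent experiment. All experiments used this single line.

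CDKs drive the cell cycle when bound by cyclins. CIP/KIP proteins bind cyclin-CDK complexes, above all those of CDK2, and p21 is known as the inhibitor through which damaged cells stop before S phase. INK4 proteins bind CDK4 and CDK6 and keep them from D-type cyclins, which leaves the retinoblastoma proteins active. HCT116 cells can induce p21 and are known to lack functional p16 through mutation and silencing of CDKN2A. miR-224 is a microRNA, a short RNA that guides silencing proteins to messenger RNAs chiefly through its seed near the 5′ end, and CDKN1A has been reported as a target of it. Whether CDK inhibitor transcripts differ in cells given miR-224 is the question of this comparison.

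The transfected precursor can give rise to either arm of the hairpin, so both mature sequences are shown, from RefSeq (GRCh38.p14), 5′ to 3′, with bases 2 to 8, the seed, in capitals.
hsa-miR-224-5p: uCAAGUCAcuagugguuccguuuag
hsa-miR-224-3p: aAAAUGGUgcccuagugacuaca
The 5p arm, 25 bases long, lies at chrX:151958628-151958652 and the 3p arm, 23 bases long, at chrX:151958584-151958606, both on the minus strand. Of 2370 mature microRNA names in the RefSeq table used, 0 others share the seed of the 5p arm and 0 others that of the 3p arm. MicroRNAs outside that table were not compared, so these counts hold for it alone. A messenger RNA site that pairs with the whole seed reads UGACUUG for the 5p arm and ACCAUUU for the 3p arm. Transcript sequences were not analysed here, so no site in a CDK inhibitor transcript is shown.

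The arrays of experiment 1 stood apart in both groups. The control probe sets for the 5′ end of actin and GAPDH read 3.80 to 4.42 on the log2 scale in experiment 1 and 12.26 to 13.03 in experiments 2 and 3, while those for the 3′ end read 12.41 to 13.06 throughout. Values with and without experiment 1 are therefore given for CDKN1A. Of 11 markers of colon epithelium, 7 lay at or above the median level of all genes (4.75 on the log2 scale), among them EPCAM, CDH1, KRT8 and KRT18, whereas KRT20, VIL1, LGALS4 and GPA33 lay below it. Measured markers at or above that level numbered 0 of 3 for leukocytes, 0 of 4 for endothelial cells and 1 of 5 (COL1A1) for fibroblasts. The summed level of the epithelial markers, as log2 of their sum, was 12.97 to 13.78 in control and 13.03 to 13.65 in miR-224 arrays. That of the fibroblast markers was 6.73 to 6.86 and 6.70 to 6.80, that of the leukocyte markers 4.59 to 4.75 and 4.52 to 4.66, and that of the endothelial markers 5.43 to 5.57 and 5.27 to 5.48.

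CDKN1A was lower in the miR-224 cells in every experiment and had the largest decrease of its family, although it missed the threshold over all probe sets. Its single probe set, 202284_s_at, read 8.79 in control and 8.25 in miR-224 cells in experiment 1, 10.21 and 9.25 in experiment 2, and 10.95 and 9.60 in experiment 3 (log2). Within each experiment the miR-224 array was the lower of the pair, but the groups overlapped, because the control array of experiment 1 was below both miR-224 arrays of the other experiments. The group means were 9.99 ± 1.10 (SD, n = 3) in control and 9.03 ± 0.70 (SD, n = 3) in miR-224 cells.

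The paired difference in CDKN1A was -0.95 ± 0.15 (SE) on the log2 scale, with a 95% interval from -1.30 to -0.60. Taken as log2, this is a level 48.3% lower than in control cells. With limma and experiment as a block, the unadjusted p was 0.00021 and the adjusted p over 54613 probe sets was 0.23, so that CDKN1A was not called. No probe set on the array was called by this fit (0%), and the lowest adjusted p of all was 0.072. By unadjusted p, CDKN1A ranked 47 among all probe sets. Its difference was among the largest decreases measured: 17 of the 19775 genes, CDKN1A included, were as low or lower by their brightest probe set.

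In 2 of 11 alternative analyses CDKN1A passed the threshold. With an intensity trend and robust variances in limma its adjusted p was 0.027, in a fit that called 0.0458% of probe sets as lower. With experiments 2 and 3 only, it was -1.16 ± 0.15 (SE) with an adjusted p of 0.027, in a fit that called 0.242% of probe sets as lower and that leaves 1 residual degree of freedom. The difference was -0.54 in experiment 1, -0.96 in experiment 2 and -1.35 in experiment 3. Experiment 1 had both the smallest difference and the lowest control level of CDKN1A, next to the low 5′ signal of its actin and GAPDH probe sets, and the part of that signal in the smaller difference was not tested. The control arrays alone spanned 2.16 for CDKN1A, a span that 2.17% of all probe sets reached. This span, from experiment 1 to experiment 3, was larger than the difference within any pair of arrays. The control levels of experiments 2 and 3, at 10.21 and 10.95, lay closer together than the pair of arrays within either of them.

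**Figure D1:**
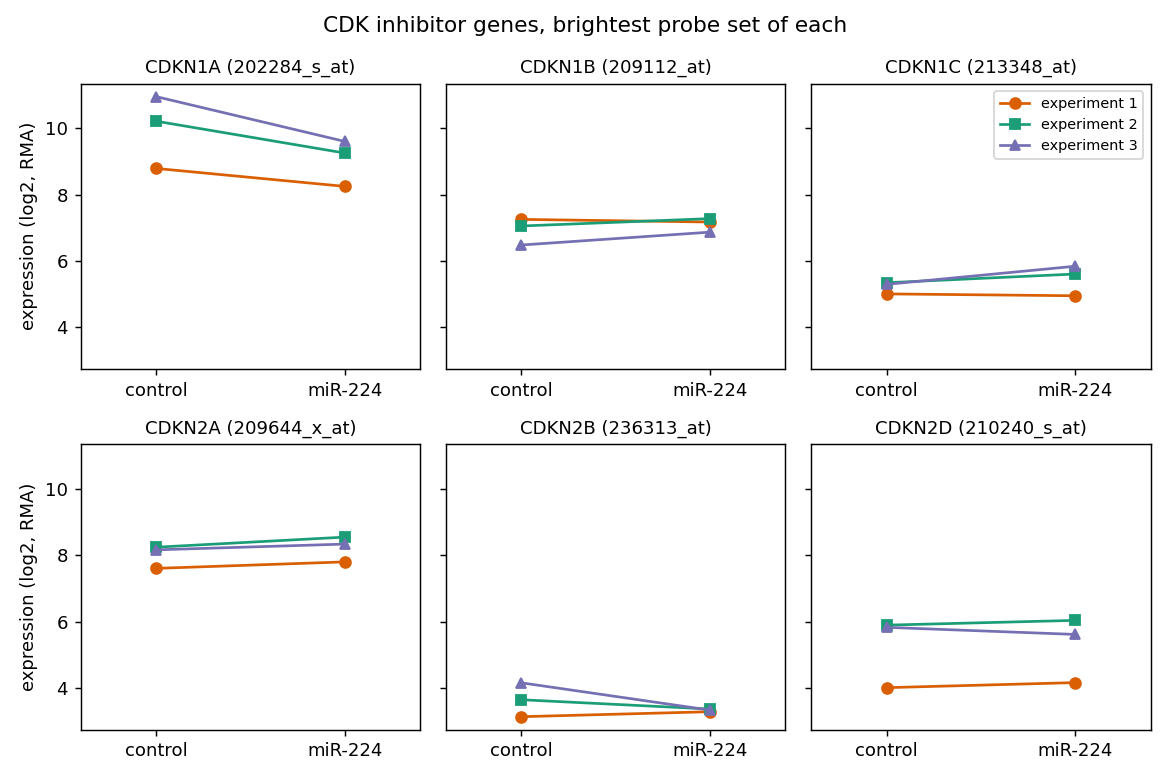
Expression (log2, RMA) of the 6 CDK inhibitor genes in control and miR-224 cells, each read by its brightest probe set, with a line joining the pair of arrays of each experiment. The CDKN1A lines slope down in all 3 experiments, from 8.79 to 8.25, 10.21 to 9.25 and 10.95 to 9.60, whereas the other genes show small differences or mixed directions.

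Neither of the other CIP/KIP genes was called in either direction, and their brightest probe sets had a higher mean in miR-224 cells. CDKN1B, whose product p27 holds CDK2 inactive in quiescent cells, is read by the single probe set 209112_at, at 7.25 in control and 7.17 in miR-224 cells in experiment 1, 7.05 and 7.28 in experiment 2, and 6.48 and 6.87 in experiment 3. It was slightly lower in experiment 1 and higher in the other experiments, with overlapping groups. The difference was 0.18 ± 0.12 (SE, n = 3 pairs), with a 95% interval from -0.10 to 0.45 (limma adjusted p = 0.69). A fall as large as that of CDKN1A lies outside this interval. With an experiment left out, the difference ranged from 0.07 (without experiment 3) to 0.30 (without experiment 1).

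CDKN1C encodes p57, an imprinted inhibitor known for its role in development, and 5 probe sets read it. The brightest, 213348_at, read 5.01 and 4.95 in experiment 1, 5.34 and 5.61 in experiment 2, and 5.29 and 5.84 in experiment 3, control first. Its difference was 0.25 ± 0.13 (SE), with a 95% interval from -0.05 to 0.55 (limma adjusted p = 0.58), and its groups overlapped. It was 0.40 without experiment 1 and 0.10 without experiment 3, and the average of the 5 probe sets was 0.04 ± 0.13 (SE). The probe sets of CDKN1C did not give 1 direction. The 3 whose names end in x_at, which by the maker's naming may also bind other transcripts, stood at -0.07, -0.07 and 0.18, and the dim 219533_at at -0.08. In experiment 3 these x_at probe sets were all higher in miR-224 cells, by 0.59, 0.15 and 0.97, while in experiment 2 all were lower, at -0.66, -0.40 and -0.55, so their direction depended on the experiment.

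Among the INK4 genes, the first CDKN2A probe set gave similar differences in all 3 experiments, and none of the INK4 probe sets was called. CDKN2A encodes p16 and, from another reading frame, p14ARF, a tumour suppressor. Its probe set 209644_x_at, which by its name may likewise bind other transcripts, read 7.61 and 7.80 in experiment 1, 8.24 and 8.55 in experiment 2, and 8.17 and 8.34 in experiment 3, control first. It was higher in miR-224 cells in each experiment, by 0.19, 0.30 and 0.17, with overlapping groups. The mean difference was 0.22 ± 0.10 (SE), with a 95% interval from -0.0094 to 0.46 (limma unadjusted p = 0.058, adjusted p = 0.53). The other CDKN2A probe sets stood at -0.04 ± 0.11 (207039_at) and 0.07 ± 0.10 (211156_at). The first of these changed sign between experiments, at -0.24, 0.0013 and 0.13, and the latter was higher in each by 0.09, 0.03 and 0.07. The average of the 3 CDKN2A probe sets was 0.08 ± 0.08 (SE). The CDKN2A probe sets also differed in how the experiments ranked: 207039_at read highest in experiment 1 (6.52 in control) and lowest in experiment 3 (5.17), while 209644_x_at read lowest in experiment 1.

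CDKN2B, the neighbour of CDKN2A and a known target of TGF-beta signalling, had a low signal. Its probe set 236313_at, at the 50.1 percentile of all probe sets by mean level, read 3.14 and 3.29 in experiment 1, 3.65 and 3.37 in experiment 2, and 4.16 and 3.33 in experiment 3, control first. The miR-224 arrays lay close together while the control arrays spread over 1.02, and the difference was -0.32 ± 0.17 (SE), with a 95% interval from -0.71 to 0.07 (limma adjusted p = 0.59). It was -0.55 without experiment 1 and -0.065 without experiment 3, and neither value passed the adjusted threshold. The other probe set of the gene, 207530_s_at, stood at 0.06 ± 0.12, and the average of both was -0.13 ± 0.13 (SE). Both probe sets lay near the median of all probe sets (3.48) and below the median level of all genes (4.75).

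CDKN2D encodes p19, an INK4 protein whose level varies over the cell cycle. Its probe set 210240_s_at read 4.01 and 4.16 in experiment 1, 5.90 and 6.04 in experiment 2, and 5.83 and 5.62 in experiment 3, control first. The difference was 0.03 ± 0.12 (SE), with a 95% interval from -0.24 to 0.29 (limma adjusted p = 0.96). Experiment 1 was lower than the others in both groups by more than 1 log2 unit, as were its 5′ control probe sets, and the part of that signal was not tested. The dim 213586_at stood at 0.18 ± 0.15, with values of 0.35, 0.48 and -0.28 by experiment, and it ranged from 0.036 (without experiment 2) to 0.41 (without experiment 3). The average of both was 0.11 ± 0.12 (SE).

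**Figure D2:**
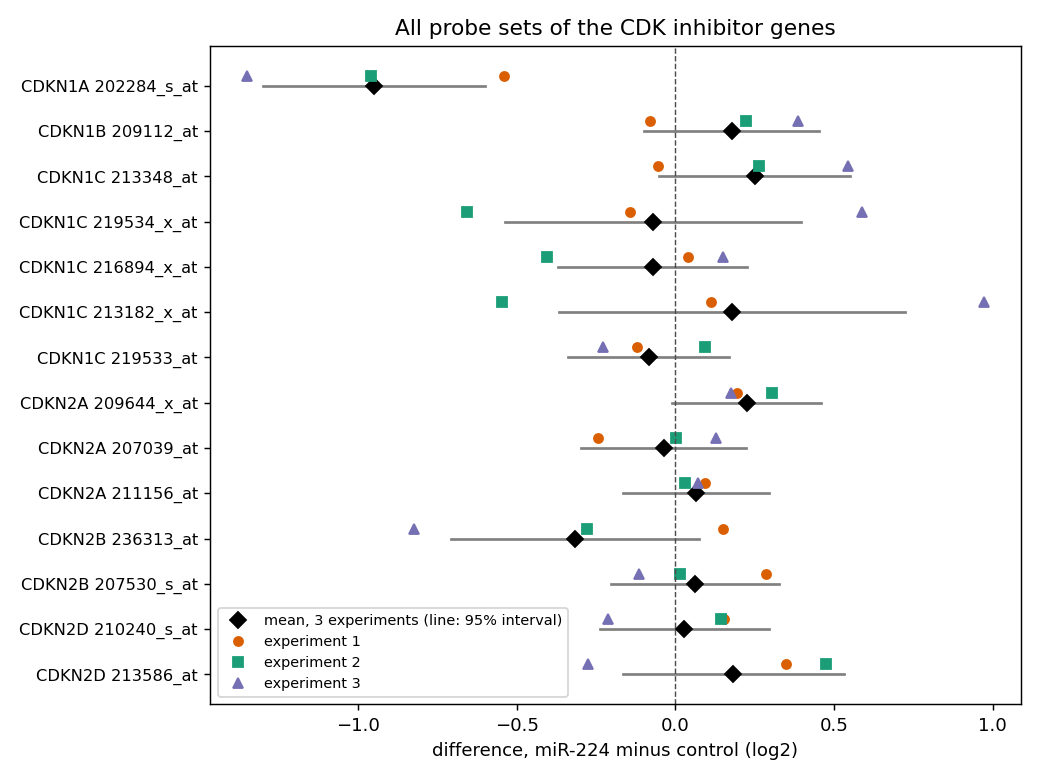
Difference between miR-224 and control cells (log2) for the 14 probe sets of the CDK inhibitor genes, with the mean of 3 experiments as a diamond, its 95% interval from limma as a line, and each experiment as a smaller symbol above it. The interval of CDKN1A, from -1.30 to -0.60, is the only one of the 14 that does not reach 0.

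Over the whole family, 0 of 14 probe sets passed the adjusted threshold and 1, that of CDKN1A, had an unadjusted p under 0.05, against 9.8% of all probe sets. Lower in all 3 experiments was 1 of 14 (14.8% of all probe sets), and higher in all 3 were 2 of 14, both of CDKN2A (16.5% of all). The groups were free of overlap for 0 of 14, against 6.66% of all. The median difference of the 14 was 0.04, and that of all probe sets was 0.01. All of these shares were near or below those of the whole array.

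The difference between CDKN1A and each other inhibitor was taken within experiments, each gene read by its brightest probe set. CDKN1A differed from CDKN1B by -1.13 ± 0.64 (SD, n = 3), from CDKN1C by -1.20 ± 0.71, from CDKN2A by -1.17 ± 0.40, from CDKN2D by -0.98 ± 0.25 and from CDKN2B by -0.63 ± 0.09. In all 5 comparisons CDKN1A had the lower value in 3 of 3 experiments. An exact two-sided sign permutation gives 0.25 for any 3 values of the same sign, before and after adjustment over the 5. As this is the smallest p it allows, it cannot tell these differences from 0 and says nothing about them either way. The gap to CDKN1B was -0.46, -1.18 and -1.74 in experiments 1, 2 and 3, whereas that to CDKN2B was even, at -0.69, -0.68 and -0.53.

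The genes whose pattern over the 3 experiments was most like that of CDKN1A were found by the root mean square distance of their 3 within-experiment log2 differences, among 9887 genes with a brightest probe set at or above the median level. The nearest was SUCO, at a distance of 0.089, with -0.42, -0.91 and -1.27 in experiments 1, 2 and 3. Next came ITPRIPL2 (0.090), with -0.58, -1.09 and -1.28, and SDC4, the cell-surface proteoglycan syndecan-4 (0.11), with -0.39, -1.02 and -1.25. FBXL5, an iron-sensing F-box protein (0.18), PLEKHA1, a phosphoinositide-binding adaptor (0.19), and SGPL1, the sphingosine-1-phosphate lyase (0.19), followed. The likeness lies in the differences and not in the levels. The control level of SDC4 was 8.95, 8.73 and 9.27 in experiments 1, 2 and 3 and that of SUCO was 6.71, 6.89 and 6.09, without the span of 2.16 that CDKN1A showed. All 6 had a limma adjusted p of 0.23.

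Genes that act with the CDK inhibitors were taken in 7 lists and read by their brightest probe set. Of these genes, 0 passed the adjusted threshold in any list in either direction (0% of all genes), also with experiments 2 and 3 only and with the intensity trend and robust variances. Those fits called 0.212% and 0.0607% of all genes as lower and 0.0101% in each as higher. Of all genes, 46.8% had a lower mean in miR-224 cells, and the median difference was 0.01. An unadjusted p under 0.05 was found for 5.19% of all genes as lower and for 5.05% as higher. The genes named had the smallest p of their list, and the values after each are the difference and its SE.

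Among the kinases, cyclins and PCNA that the inhibitors bind, 7 of 16 genes were lower and the median was 0.07. CCND1, which encodes the cyclin D1 partner of CDK4 and CDK6, stood at -0.56 ± 0.19, with 0.07, -0.79 and -0.96 in experiments 1, 2 and 3, and its other bright probe set at -0.67 ± 0.23. CCNA2, the cyclin of S and G2 phase, stood at 0.33 ± 0.12 and was higher in each experiment, by 0.21, 0.17 and 0.61, while another bright probe set of it stood at 0.03 ± 0.10. CCNE1, the cyclin E1 partner of CDK2, stood at -0.21 ± 0.10. CCND2 stood at 0.25 ± 0.11 but was dim, with a mean level of 2.97.

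In the list of RB family, E2F and DREAM genes, which act downstream of the CDKs, 12 of 18 were lower with a median of -0.04. LIN54, a DNA-binding subunit of DREAM, stood at 0.42 ± 0.10 with even values of 0.41, 0.39 and 0.48, on a dim probe set with a mean level of 3.21. RBL2, the p130 pocket protein, stood at -0.22 ± 0.13, with 0.02, -0.11 and -0.58 in experiments 1, 2 and 3. Its other probe set, below the median level of all genes (4.75), stood at -0.30 ± 0.12. E2F5 stood at -0.22 ± 0.11 (-0.01 on a dim probe set) and LIN52 at -0.20 ± 0.11 (-0.24 on its other probe set). Among genes of CIP/KIP protein turnover, such as ubiquitin ligase subunits, 8 of 18 were lower with a median of 0.02. UHMK1, a kinase that phosphorylates p27, stood at 0.32 ± 0.14, with -0.08, 0.56 and 0.47 in experiments 1, 2 and 3. Of its other probe sets, that above the median level of all genes (4.75) stood at 0.68 ± 0.24. Those below that level stood at 0.81 ± 0.40 and 0.87 ± 0.19. RNF123, a ligase for p27, stood at -0.19 ± 0.11 and at -0.06 ± 0.13 on another. CUL4B stood at -0.19 ± 0.10, while its other probe sets above that level stood at 0.04, -0.21 and 0.05 and so differed in sign. CDC20 stood at 0.18 ± 0.11.

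Transcription regulators of CDKN1A were split evenly, with 10 of 20 lower and a median of -0.0070, and 6 of 20 were lower without experiment 3. SMAD4, the shared SMAD of TGF-beta signalling, stood at -0.79 ± 0.24, with -0.28, -0.40 and -1.70 in experiments 1, 2 and 3. Its other probe set above the median level of all genes (4.75) stood at -0.12 ± 0.11. Those below that level stood at -0.10 ± 0.10, -0.48 ± 0.12 and 0.06 ± 0.11. SMAD3 was lower more evenly, at -0.26, -0.36 and -0.50, with a mean of -0.38 ± 0.11. Its other probe sets above the median level of all genes (4.75) stood at -0.42, -0.13 and -0.42. SP3, a factor of GC-rich promoters, stood at 0.48 ± 0.13 and FOXO3, which can activate CDKN1A with SMAD proteins, at 0.45 ± 0.14. Other probe sets above that level stood at 0.29 for SP3 and at 0.27 and 0.22 for FOXO3. Below it, those of SP3 stood at 0.07, -0.04 and -0.04 and that of FOXO3 at 0.09. Of the regulators of the INK4 locus 7 of 11 were lower with a median of -0.14, and BMI1, CBX8 and RNF2 were not analysed here. CBX7, a Polycomb repressor of that locus, stood at -0.28 ± 0.10 with -0.31, -0.26 and -0.29 by experiment. ID1, which restrains ETS factors, stood at -0.41 ± 0.12, but its control level was 5.68 in experiment 1 against 11.87 and 11.99 in the others. ETS1 stood at -0.63 ± 0.26, carried by experiment 3 (-1.59), and JUNB at -0.19 ± 0.14.

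Of other genes that restrain or activate CDKs, 4 of 12 were lower with a median of 0.06, and 8 of 12 without experiment 3. CDKN3, a phosphatase that acts on CDK2 and belongs to neither the CIP/KIP nor the INK4 family, stood at 0.58 ± 0.16 and at 0.55 ± 0.15 on another bright probe set. CDK2AP2 stood at -0.58 ± 0.18, CABLES2 at 0.46 ± 0.11 and WEE1, the kinase that holds CDK1 inactive, at -0.30 ± 0.13, with -0.34 on its other probe set. Of cell cycle genes that p21 lowers through RB and DREAM, 4 of 24 were lower and 20 higher, with a median of 0.11, and 10 of 24 were lower without experiment 3. PLK1, the mitotic kinase, stood at 0.50 ± 0.11 with 0.39, 0.68 and 0.44 by experiment, CCNB2 at 0.36 ± 0.13 and MCM3, of the replicative helicase, at 0.21 ± 0.10. CDC6, which loads that helicase, stood at -0.27 ± 0.10, but at -0.04 ± 0.14 on its other bright probe set. The medians of this list were 0.03, -0.02 and 0.26 in experiments 1, 2 and 3, so experiment 3 held the higher values.

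**Figure D3:**
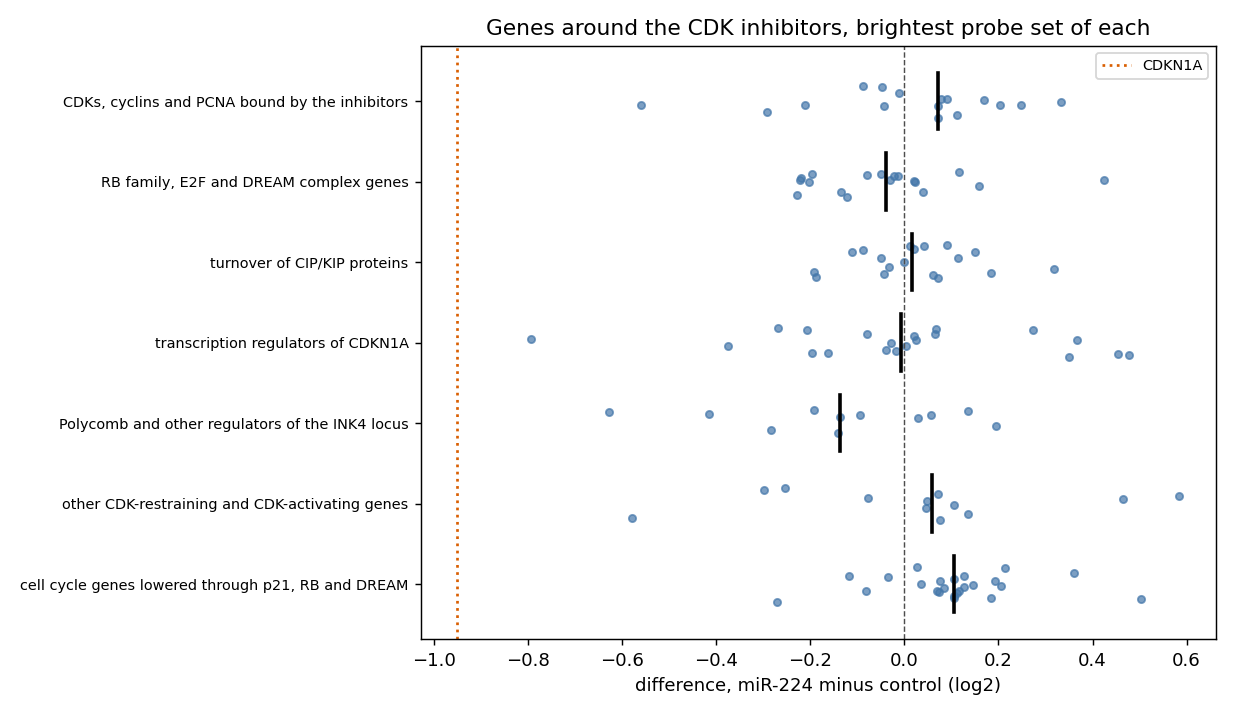
Difference between miR-224 and control cells (log2) for genes of 7 lists around the CDK inhibitors, 1 point a gene by its brightest probe set, with the median of each list as a black bar and CDKN1A as a dotted line. List medians lie between -0.14 and 0.11, and no listed gene is as low as CDKN1A at -0.95.

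**Figure D4:**
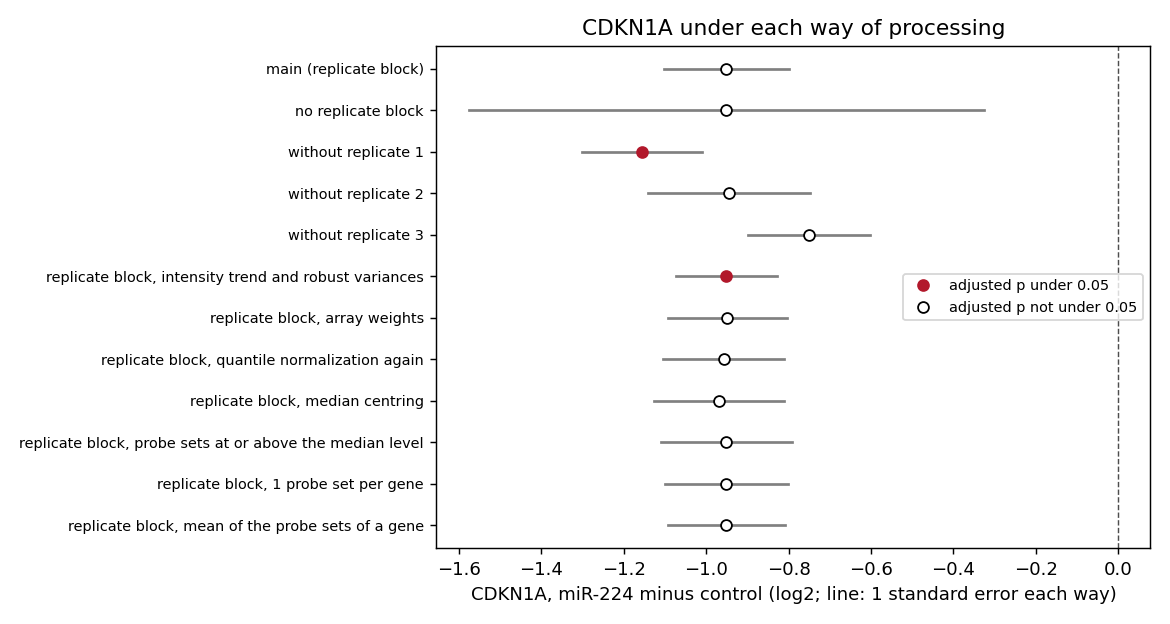
Difference in CDKN1A (log2) under the main fit and 11 alternatives, with 1 standard error each way and filled points where the limma adjusted p was under 0.05. The difference stays between -1.16 and -0.75, and 2 of the 11 alternatives pass, namely that without replicate 1 and that with an intensity trend and robust variances.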

How the data were processed

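The data are deposited expression values of 6 Affymetrix arrays. They were made with RMA and Partek, per the submitters' processing notes. Their versions and options are not stated. The RMA method subtracts background, equalises the distributions of the arrays and summarises each probe set, so a shift shared by most genes is not visible. The deposited values were read as log2 values, from their range of 1.47 to 13.6, as the base is not stated.

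Of 54675 probe sets, 41097 had 1 gene symbol in the array annotation, 1801 several and 11777 none listed. The fits left out 62 control probe sets. A gene's brightest probe set is that with the highest mean over the 6 arrays. Brightness depends on the probes, so "bright" and "dim" describe the signal of a probe set against the median of the array, and no order of transcript amounts is drawn from it.

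Groups and pairs came from the numbers in the sample titles, as the series describes pairs from 3 independent experiments. Deviations from group means correlated at 0.90, 0.73 and 0.78 between same-numbered arrays and at -0.78 to 0.47 between others. The fit was limma 3.58.1 in R 4.3.3 (lmFit, eBayes, two-sided, Benjamini-Hochberg over 54613 probe sets, threshold 0.05) with experiment as a block, which leaves 2 residual degrees of freedom. It was run on simulated data, where only the bias and the sign of its differences had to meet a limit. Sign permutations, whose p cannot go below 0.25 with 3 experiments, were run with scipy 1.17.1 in Python 3.11.15. With 3 arrays a group, their number limits the precision.

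Some items are not reported here. The members, lists, tests and alternatives were chosen with earlier results of these data known. Named were all members, up to 4 genes of each list by smallest p, and the 6 genes nearest CDKN1A in pattern. The alternatives were no block, leaving out each experiment (in a blocked fit the same as leaving out either array of it), an intensity trend with robust variances, array weights, quantile normalization again, median centring, probe sets at or above the median level (3.48), 1 probe set per gene, the average over all probe sets of a gene, and a threshold of 0.1.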

Additional observations from a re-analysis of the deposited data

How the results depend on the processing

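CDKN1A was lower in the main fit and in all 11 alternatives, from -1.16 to -0.75, which are also the lowest and highest values with an experiment left out. It passed the adjusted threshold with the intensity trend and robust variances (-0.95, limma adjusted p = 0.027) and without experiment 1, and its adjusted p otherwise ran from 0.14 to 1. Without the replicate block it was -0.95 ± 0.63 (SE), with a limma adjusted p of 1, since the spread between experiments then enters the error. The block changed no call. The count of called probe sets was 0 with the block, 28 with the intensity trend and robust variances, 2 at a threshold of 0.1, and 0 to 137 with an experiment left out (137 without experiment 1). Of the 124 alternative values for the other 13 probe sets, 0 passed and 8 had the opposite sign. Others kept their sign but moved by more than 1.5 times, among them the brightest probe sets of CDKN1B (0.07 to 0.30), CDKN1C (0.10 to 0.40) and CDKN2B (-0.55 to -0.065) with an experiment left out. In the same way, other probe sets ranged for CDKN1C from -0.40 to 0.22 (219534_x_at), -0.18 to 0.095 (216894_x_at) and -0.22 to 0.54 (213182_x_at), CDKN2A from -0.12 to 0.065 (207039_at), CDKN2B from -0.051 to 0.15 (207530_s_at) and CDKN2D from -0.035 to 0.15 (210240_s_at). Quantile normalization again gave 0.0074 for CDKN2A on 207039_at. Probe sets below the median level have no value under that filter. No detection calls were used here, so dim probe sets cannot be told from background.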
